A study of Arabidopsis thaliana with 60 samples.

Results

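The transcripts described here encode the enzymes that remove superoxide and hydrogen peroxide from leaf cells: the catalases CAT1, CAT2 and CAT3, the ascorbate peroxidases APX1, APX2, SAPX and TAPX, and the superoxide dismutases CSD1, CSD2 and FSD1. They were taken by name and not by a measured value, though with earlier results of these data known. They are 10 of the 32678 genes counted in each of the 2 tables. The data are poly(A) RNA sequencing counts from rosette leaves of Arabidopsis thaliana Col-0 plants that were 4 weeks old, grown in short days and infiltrated by syringe with 1 µM dexamethasone, at 0, 2, 4, 6 and 8 h after infiltration. Wild type carrying DEXp:MLACC-mYFP, a dexamethasone-inducible fusion of a yellow fluorescent protein to the CC domain of barley MLA, an intracellular immune receptor (hereafter MLACC), was set against wild type carrying DEXp:mYFP, the fluorescent protein alone. The sextuple mutant ppsdes (alleles sid2-2, ein2-1, dde2-2, sag101-2, pad4-1 and pen2-1) carrying DEXp:MLACC-mYFP was set against ppsdes without any transgene. All 4 lines share the Col-0 ecotype and the dexamethasone infiltration. Each of the 20 groups held 3 biological replicates, each pooled from 6 leaf discs of 6 plants. The comparisons asked which transcripts follow induction of MLACC, and whether they do so in plants that lack several defence hormone pathways. Per the study's methods, lines whose marker segregated as for a single insertion were chosen for each construct, and plants homozygous for the transgene were used. The study also notes a lower steady level of MLACC protein in the mutant. Only the wild-type control expresses mYFP, so the controls of the 2 backgrounds are not alike.

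Superoxide formed in chloroplasts, mitochondria and at the cell surface is converted to hydrogen peroxide by superoxide dismutases, which use copper and zinc (CSD1 in the cytosol, CSD2 in the chloroplast) or iron (FSD1, mainly in the chloroplast). Ascorbate peroxidases then reduce hydrogen peroxide with ascorbate in the cytosol (APX1, APX2) and in the chloroplast (SAPX in the stroma, TAPX on the thylakoid), while catalases break it down without a reductant in peroxisomes, where CAT2 serves the peroxide from photorespiration by day. The messages of CSD1 and CSD2 are targets of the microRNA miR398, which accumulates under copper shortage through the transcription factor SPL7 and lowers them in favour of FSD1.

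CAT3 (AT1G20620, chr1:7142972-7146540, plus strand) and CAT1 (AT1G20630, chr1:7146636-7150180, plus strand) lie in tandem with 95 bases between them in the RefSeq annotation of TAIR10.1. CAT2 (AT4G35090, chr4:16700312-16703504, minus strand) shares 95 bp of its span with AT4G35080 on the other strand. The ascorbate peroxidase genes are APX1 (AT1G07890, chr1:2437281-2439665), APX2 (AT3G09640, chr3:2956156-2958330), SAPX (AT4G08390, chr4:5314871-5317963) and TAPX (AT1G77490, chr1:29117500-29121093), all on the plus strand. CSD1 (AT1G08830, chr1:2827060-2829315, plus strand) shares 211 bp with emb2411 on the other strand. CSD2 (AT2G28190, chr2:12014412-12016569) lies on the plus strand and FSD1 (AT4G25100, chr4:12884300-12887011) on the minus strand. No 50-base stretch within the exons of the 10 genes occurs a second time in the genome. The libraries did not keep the strand, so reads from the shared ends of CAT2 and CSD1 cannot be assigned to one gene.

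The mature miR398 and the sites it pairs with in CSD1 and CSD2 are shown because the precursors and both targets were measured in the same libraries. In the microRNA the seed (bases 2 to 8) is in capitals, and miR398b and miR398c, which are identical, share it with miR398a.
miR398a: uGUGUUCUcaggucaccccuu
miR398b and miR398c: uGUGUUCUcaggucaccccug
In the target sites capitals mark bases that form a Watson-Crick pair with miR398b. The CSD1 site lies in the 5′ untranslated region and is split by an intron (chr1:2827177-2827685, plus strand), and the CSD2 site lies in the coding sequence (chr2:12015572-12015591, plus strand).
CSD1 site: aAGGGGTttCCTGAGAtCACA
CSD2 site: tgcGGGTGACCTGgGAAACA
CSD1 paired at 17 bases with 4 mismatches, and 39 of 27440 genes (0.142%) held a site at least as good when a mismatch or unpaired base cost 1 and a G:U pair 0.5. CSD2 paired at 16 bases with 1 mismatch, 3 G:U pairs and 1 unpaired base of the microRNA, and 10 genes (0.0364%) held a site at least as good. For the best site of FSD1 this share was 37.5%. Such matches describe letters, not cleavage.

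The 250 bases before the annotated start are shown for CAT2 and CAT3, which moved in opposite directions over time in both control lines, and for APX1, which rose with MLACC. Capitals mark matches, on either strand, to 7 motifs: the evening element AAAATATCT (found in 2.36% of 27443 promoters of this length), the CCA1 site AAAAATCT (6.69%), the G-box CACGTG (6.49%), the copper response core GTAC (34.3%), the heat shock element GAANNTTC (9.55%), the CAMTA core CGCG (10.1%) and the W-box core TTGAC (44.9%).
CAT2: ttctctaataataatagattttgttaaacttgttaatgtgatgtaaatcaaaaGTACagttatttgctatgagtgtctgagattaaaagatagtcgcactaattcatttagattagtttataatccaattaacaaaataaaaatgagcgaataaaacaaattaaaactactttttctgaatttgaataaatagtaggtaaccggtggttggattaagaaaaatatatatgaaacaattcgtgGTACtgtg
CAT3: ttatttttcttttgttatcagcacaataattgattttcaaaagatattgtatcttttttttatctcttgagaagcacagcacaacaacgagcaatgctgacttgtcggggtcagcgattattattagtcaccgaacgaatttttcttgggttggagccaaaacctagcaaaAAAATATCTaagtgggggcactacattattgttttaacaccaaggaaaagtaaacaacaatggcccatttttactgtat
APX1: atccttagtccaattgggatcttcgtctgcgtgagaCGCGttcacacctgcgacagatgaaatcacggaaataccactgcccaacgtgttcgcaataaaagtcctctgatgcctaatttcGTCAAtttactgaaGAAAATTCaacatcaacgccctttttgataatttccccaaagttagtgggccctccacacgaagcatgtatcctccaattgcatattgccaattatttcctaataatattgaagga
The CAT2 window (chr4:16703505-16703754, minus strand) held GTAC at 2 places. The CAT3 window (chr1:7142722-7142971, plus strand) held the evening element, a motif of clock-controlled genes, 79 to 71 bases before the start, and was the only 1 of the 10 windows with it. The APX1 window (chr1:2437031-2437280, plus strand) held a heat shock element 116 to 109 bases before the start, a CAMTA core and, on the other strand, a W-box core. APX2 was the other gene of the 10 with a heat shock element, and also held the G-box.

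The depth was 14.1 to 26 M gene counts per library in the ppsdes table and 18.2 to 25.8 M in the wild-type table. Levels are given as CPM, that is counts scaled to library totals with TMM factors. The backgrounds came as separate tables, so table and background cannot be told apart. SID2, disrupted in ppsdes, was at 0.155 to 1.13 CPM in the 30 ppsdes libraries and at 11 to 2163 CPM in the 30 wild-type libraries. When each library was set against the time points of its line over all genes, 55 of 60 were closest to their own. The 5 that were not are replicate 1 at 4 h and replicate 3 at 8 h of wild type with MLACC, replicate 3 at 2 h of the mYFP line, and at 6 h replicate 1 of each ppsdes line. Mesophyll markers were abundant, and root and flower markers summed to at most 2.55 and 2.52 CPM in any library, with 2 of 4 and 1 of 3 detected.

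At 0 h no member differed between lines by the thresholds used. CAT2 was the most abundant, 41st of all 32678 genes by mean CPM in the mYFP line, followed by FSD1 (140th) and APX1 (404th). Per kb of exon, CAT2 averaged 1179 ± 146 CPM per kb (SD, n = 3) in the mYFP line, FSD1 598 ± 65.8, APX1 191 ± 39.8, CSD2 113 ± 21.2, TAPX 101 ± 3.49, CSD1 56.0 ± 9.58, SAPX 55.1 ± 11.7, CAT3 44.7 ± 6.44 and CAT1 7.72 ± 0.699. The ranges of CSD2 and TAPX overlapped, as did those of CSD1, SAPX and CAT3, so that their order is not resolved. Exon lengths are unions over all annotated transcripts, at 3385 of 3569 bp of the gene for CAT3 and 2226 of 3545 bp for CAT1. A union that takes in sequence absent from a given message lowers the value per kb. Levels and shares per kb, those of CAT3 above all, are therefore approximate between genes. APX2, known from heat and strong light, had 0 to 3 counts in every library and was the 1 member of 10 that did not pass the filter on low counts. With MLACC at 0 h in wild type, 0 of the 9 members tested passed the thresholds (adjusted p below 0.01 and an absolute log2 fold change, log2FC, above 1) by edgeR or by DESeq2 and 0 had an unadjusted p below 0.05, where 0.00509% of all genes were called. In ppsdes the counts were again 0, 0 and 0, where 0.0104% of genes were called. The ppsdes control against the mYFP line at 0 h also gave 0 of 9 by both tools and 0 at an unadjusted p below 0.05, where 0.351% of genes were called.

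The 3 catalases traded places over the 8 h in both control lines. In the mYFP line CAT2 was at 3261 ± 403, 1614 ± 133, 847 ± 151, 469 ± 62.5 and 150 ± 11.7 CPM at 0, 2, 4, 6 and 8 h (SD, n = 3), and CAT3 at 151 ± 21.8, 161 ± 32.4, 513 ± 131, 1249 ± 423 and 1747 ± 369 CPM. The libraries of 8 h and of 0 h did not overlap for either gene. CAT2 fell 20.9-fold at 8 h against 0 h in the mYFP line (log2FC -4.38 ± 0.26 SE, edgeR adjusted p = 5.94e-12) and 14.4-fold in the ppsdes control (log2FC -3.85 ± 0.23, adjusted p = 4.25e-12). CAT3 rose 12.1-fold in the mYFP line (log2FC 3.59 ± 0.50, adjusted p = 3.21e-06) and 12.4-fold in the ppsdes control (log2FC 3.64 ± 0.29, adjusted p = 6.46e-10). CAT1, best known from seeds and pollen, was low at 0 h and rose 7.55-fold in the mYFP line (log2FC 2.92 ± 0.30, adjusted p = 3.7e-08) and 7.09-fold in the ppsdes control (log2FC 2.83 ± 0.20, adjusted p = 7.88e-11). Together the 3 catalases had 2021 ± 388 CPM at 8 h and 3429 ± 394 CPM at 0 h in the mYFP line. As a share of catalase CPM per kb, CAT2 made up 8.77% ± 1.07 at 8 h and 95.7% ± 0.891 at 0 h, and CAT3 82.2% ± 2.35 at 8 h and 3.69% ± 0.855 at 0 h. A time course at set hours of 1 day cannot tell the hour of day, the infiltration and the dexamethasone apart.

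**Figure D1:**
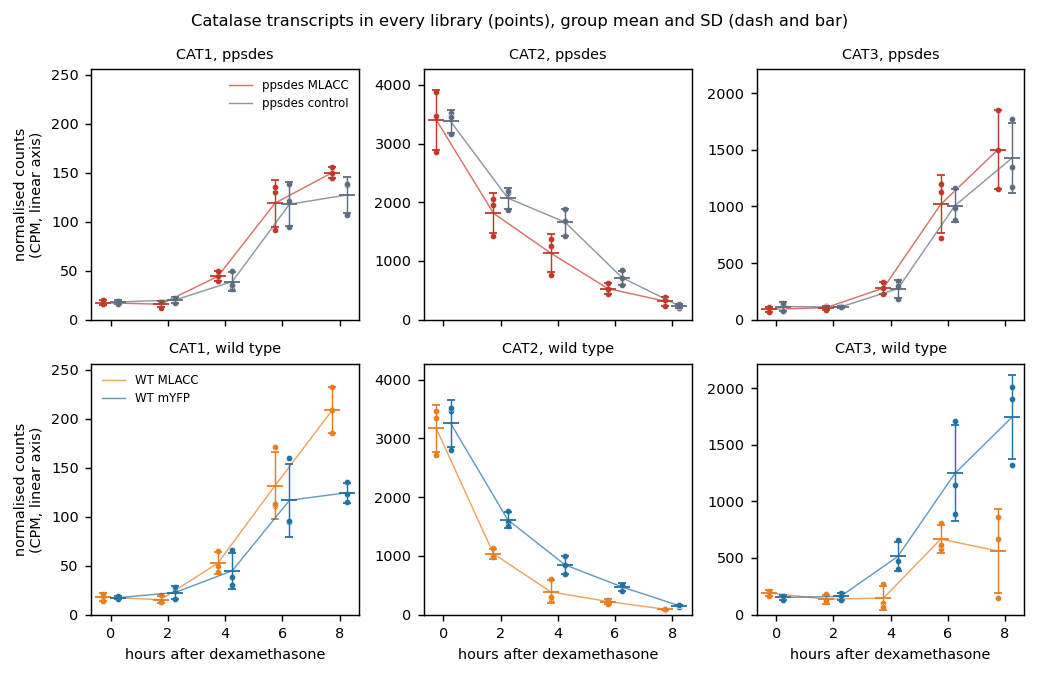
CAT1, CAT2 and CAT3 in every library (CPM, linear axes that start at 0) over hours after dexamethasone, ppsdes above and wild type below, with dashes and bars for the mean and SD of 3 libraries. The mean of CAT2 is lower and those of CAT1 and CAT3 are higher at 8 h than at 0 h in all 4 lines, although 1 library of wild type with MLACC has less CAT3 at 8 h (148 CPM) than any at 0 h (162 to 212 CPM), and in wild type at 8 h CAT3 averages 562 CPM with MLACC and 1747 CPM with mYFP while the ppsdes lines overlap.

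**Figure D2:**
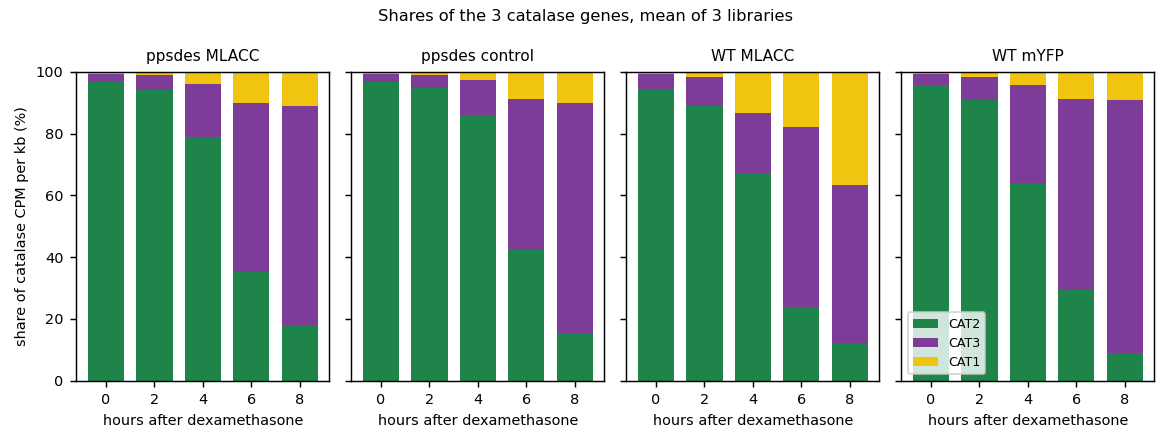
Share of CAT1, CAT2 and CAT3 in the summed catalase CPM per kb of exon (percent, mean of 3 libraries) at each time in the 4 lines. CAT2 holds 94.6% to 97.2% at 0 h, and at 8 h CAT1 holds 36.5% in wild type with MLACC and 9.08% with mYFP. The bars show no spread, and CAT3 in wild type with MLACC at 8 h ranged from 148 to 866 CPM, so the mean share there covers unlike libraries. Shares depend on exon lengths taken as unions over all annotated transcripts, which can make that of CAT3 too low.

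Beside the catalases, only FSD1 and APX1 were called in the controls. In the mYFP line SAPX had a log2FC of -1.02, -1.04 and -0.98 at 4, 6 and 8 h against 0 h. These did not pass (edgeR adjusted p = 0.056, 0.0432 and 0.0542), nor did CSD2 at 6 h (-1.01, adjusted p = 0.0495). In the ppsdes control SAPX averaged 110 CPM at 0 h and 89.6 CPM at 8 h. FSD1 fell at 8 h against 0 h in the mYFP line (405 ± 148 CPM at 8 h and 929 ± 102 CPM at 0 h, log2FC -1.14 ± 0.33, edgeR adjusted p = 0.0069) and in the ppsdes control (476 ± 34.0 CPM at 8 h and 1006 ± 176 CPM at 0 h, log2FC -1.07 ± 0.15, adjusted p = 4.22e-06). APX1 stood at 840 ± 167 CPM at 2 h and 410 ± 13.5 CPM at 0 h in the ppsdes control, a rise (log2FC 1.06 ± 0.18, adjusted p = 8.45e-05) of which a log2FC of 0.25 ± 0.18 was left at 8 h. In the mYFP line its 2 h value was 0.72 ± 0.25 (adjusted p = 0.0299). Of the 9 members tested, 1, 3, 3 and 4 were called in the mYFP line at 2, 4, 6 and 8 h against 0 h, where 10.6%, 13.1%, 19.9% and 21.9% of all genes were called, and 1, 3, 4 and 4 in the ppsdes control, where 12%, 13.9%, 18.9% and 20.8% were. The 8 h call of FSD1 in the mYFP line was lost without replicate 1 (-1.09) or 3 (-1.12) of 0 h or replicate 1 (-0.88) or 3 (-1.26) of 8 h, and its call in the ppsdes control without replicate 2 of 0 h (-0.98). The 2 h call of APX1 was lost without replicate 3 of 2 h (0.94).

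At 2 h after dexamethasone MLACC had no called member in wild type. By edgeR 0 of 9 members were called, 1 had an unadjusted p below 0.05 (CAT2, log2FC -0.59 ± 0.23, adjusted p = 0.11) and DESeq2 called 0, while 4.26% of all genes were called. From 4 h on, 4, 4 and 5 of 9 members were called at 4, 6 and 8 h, against 39%, 29.3% and 45.8% of all genes tested, so that the share of members called lay near that of all genes. Cytosolic APX1 and CSD1 and the chloroplast SAPX were higher with MLACC, and CAT2, CAT3 and the thylakoid TAPX were lower, each at 1 or more of these times.

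The peroxisomal catalases CAT2 and CAT3 were lower with MLACC. CAT2 had 612, 251 and 297 CPM with MLACC at 4 h, against 996, 694 and 850 CPM in the mYFP line. All 3 MLACC libraries lay below all 3 mYFP libraries, and replicate 1, the highest of them, is closer to another time point over all genes (the log2FC given next is -1.65 when all 5 such libraries are left out). CAT2 was 2.13-fold lower with MLACC than with mYFP at 4 h (log2FC -1.09 ± 0.23, edgeR adjusted p = 0.000313) and 2.09-fold lower at 6 h (log2FC -1.06 ± 0.23, adjusted p = 0.000526). At 8 h its 86.5, 81.6 and 101 CPM with MLACC still lay below the 136, 156 and 156 CPM with mYFP, but its log2FC of -0.73 ± 0.23 (adjusted p = 0.00735) was under the fold threshold.

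CAT3 had 271, 102 and 64.4 CPM with MLACC at 4 h, against 406, 659 and 475 CPM with mYFP. At 8 h it had 671, 148 and 866 CPM with MLACC, against 1326, 2011 and 1904 CPM with mYFP. The groups did not overlap at either time, and replicate 2 of MLACC stood far below the other two at 8 h. CAT3 was 3.42-fold lower with MLACC than with mYFP at 4 h (log2FC -1.77 ± 0.47, edgeR adjusted p = 0.00205). It was 3.12-fold lower at 8 h (log2FC -1.64 ± 0.47, adjusted p = 0.00316), with -0.89 ± 0.46 at 6 h (adjusted p = 0.0914). Over time the mean of CAT3 still rose with MLACC, from 191 CPM at 0 h to 562 CPM at 8 h. CAT1 did not share this direction. Its 186, 232 and 209 CPM with MLACC at 8 h lay above the 114, 124 and 135 CPM with mYFP, with a log2FC of 0.76 ± 0.28 that did not pass (adjusted p = 0.0172). CAT1 made up 36.5% ± 19.3 of catalase CPM per kb with MLACC at 8 h and 9.08% ± 1.30 with mYFP. The summed catalase level was 861 ± 364 CPM with MLACC and 2021 ± 388 CPM with mYFP.

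The catalase calls sat close to the thresholds. That of CAT2 at 4 h was lost without mYFP replicate 1 (-0.98) or MLACC replicate 2 (-0.86) or 3 (-0.93), and at 6 h without mYFP replicate 1 (-0.98) or 3 (adjusted p = 0.0033, fold just under the threshold) or MLACC replicate 2 (-0.93). That of CAT3 was lost at 4 h without MLACC replicate 2 (-1.58, edgeR adjusted p = 0.0153) or 3 (-1.42, adjusted p = 0.0169), while without replicate 1 it was -2.57, and it was lost at 8 h without mYFP replicate 2 (-1.51) or 3 (-1.56) or MLACC replicate 2 (-1.19, adjusted p = 0.0153). With the difference at 0 h subtracted, or with only the compared libraries in the fit, the directions and most of the fold stayed, and calls were lost through the adjusted p. Subtracted, CAT2 had a log2FC of -1.05 at 4 h (edgeR adjusted p = 0.012) and -1.02 at 6 h (adjusted p = 0.0195), and CAT3 of -2.11 at 4 h (adjusted p = 0.0115) and -1.98 at 8 h (adjusted p = 0.0129). With only the compared libraries, CAT2 had -1.10 at 4 h (adjusted p = 0.0544) and CAT3 -1.77 at 4 h (adjusted p = 0.0401) and -1.67 at 8 h (adjusted p = 0.0567), whereas CAT2 at 6 h kept its call.

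APX1, the main cytosolic ascorbate peroxidase, rose with MLACC at every time from 4 h. It had 908, 1478 and 1402 CPM with MLACC at 4 h, against 241, 342 and 360 CPM with mYFP. At 8 h it had 1196, 1834 and 1124 CPM with MLACC, against 207, 416 and 426 CPM with mYFP. Every MLACC library was above every mYFP library at 4, 6 and 8 h. The rise was 4.16-fold at 4 h (log2FC 2.05 ± 0.26, edgeR adjusted p = 7.34e-07), 2.69-fold at 6 h (log2FC 1.43 ± 0.25, adjusted p = 6.37e-05) and 4.01-fold at 8 h (log2FC 2.00 ± 0.26, adjusted p = 5.89e-07). The 6 h call was lost with the difference at 0 h subtracted (1.19, adjusted p = 0.0131), and those of 4 and 8 h were kept under all 13 alternatives. Per kb APX1 was the most abundant member with MLACC at 8 h, at 773 ± 218 CPM per kb, whereas CAT3 led with mYFP at 516 ± 109.

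The chloroplast pair split. SAPX, the stromal enzyme, had 133, 230 and 184 CPM with MLACC at 8 h, against 25.8, 64.8 and 67.9 CPM with mYFP, without overlap. SAPX was 3.49-fold higher with MLACC than with mYFP at 8 h (log2FC 1.80 ± 0.42, edgeR adjusted p = 0.000595). It was 2.58-fold higher at 6 h (log2FC 1.37 ± 0.42, adjusted p = 0.00705), and had a log2FC of 1.25 ± 0.42 at 4 h (adjusted p = 0.0108). Both lines moved over time. SAPX went from 109 ± 23.2 CPM at 0 h to 52.8 ± 23.5 CPM at 8 h with mYFP, and from 101 ± 16.6 to 182 ± 48.3 CPM with MLACC. TAPX, the thylakoid enzyme, had 103, 78.4 and 136 CPM with MLACC at 8 h, against 247, 224 and 241 CPM with mYFP. The TAPX libraries with MLACC all lay lower, and it fell 2.24-fold (log2FC -1.16 ± 0.13, adjusted p = 1.1e-07), with -0.59 ± 0.13 at 6 h (adjusted p = 0.00056). APX1 took 84.9% ± 3.37 of ascorbate peroxidase CPM per kb with MLACC at 8 h and 60.4% ± 8.21 with mYFP. TAPX took 4.96% ± 2.16 with MLACC and 31.5% ± 10.3 with mYFP. The 6 h call of SAPX was lost without mYFP replicate 1 (1.27), 2 (1.40) or 3 (1.51) or MLACC replicate 2 (1.42) or 3 (adjusted p = 0.0534), and also with the difference at 0 h subtracted (1.48, adjusted p = 0.0513). At 4 h SAPX passed by DESeq2 (1.23, adjusted p = 0.00541) and without MLACC replicate 1 (1.49). Its 8 h call was lost with only the compared libraries in the fit (1.74, adjusted p = 0.0104).

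**Figure D3:**
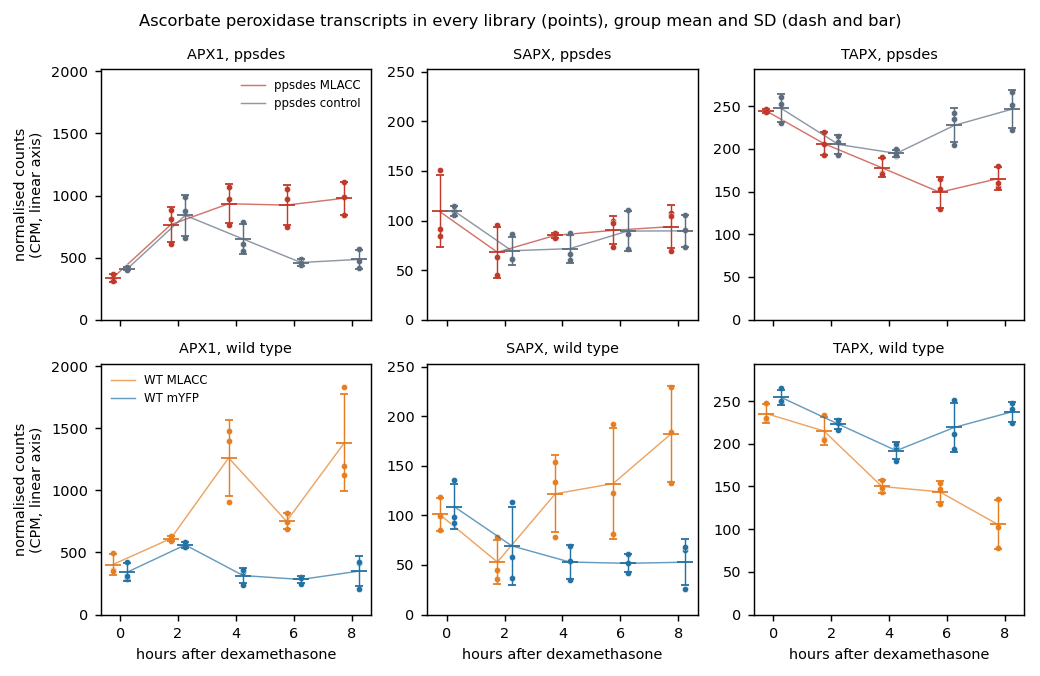
APX1, SAPX and TAPX in every library (CPM, linear axes that start at 0) over hours after dexamethasone, ppsdes above and wild type below, with dashes and bars for the mean and SD of 3 libraries. In wild type at 8 h APX1 averages 1384 CPM with MLACC and 350 CPM with mYFP, and TAPX 106 CPM with MLACC and 238 CPM with mYFP.

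APX2 was barely detected in any library. Its counts were 0, 0 and 0 with MLACC at 8 h, and 0, 0 and 1 with mYFP. HSFA2, a heat shock factor known to drive APX2 in heat and strong light, had 28.3, 35.1 and 18.5 CPM with MLACC at 8 h, against 1.23, 0.359 and 0.0513 CPM with mYFP, and rose (log2FC 5.61 ± 0.81, edgeR adjusted p = 2.51e-06). ZAT12, a zinc finger gene known to respond to hydrogen peroxide, was at 178 ± 64.3 CPM with MLACC and 0.299 ± 0.161 CPM with mYFP at 8 h, and rose too (log2FC 9.21 ± 1.08, adjusted p = 1.68e-07). No difference of APX2 was detectable at this depth.

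CSD1, the cytosolic copper/zinc superoxide dismutase, rose at every time from 4 h. It had 86.1, 125 and 159 CPM with MLACC at 4 h, against 49.5, 48.2 and 82.3 CPM with mYFP. At 8 h it had 345, 350 and 326 CPM with MLACC, against 85.8, 49.4 and 61.7 CPM with mYFP. The groups did not overlap from 4 h, and the 3 MLACC libraries of 8 h were nearly equal. CSD1 rose 2.12-fold at 4 h (log2FC 1.08 ± 0.25, edgeR adjusted p = 0.000733), 2.81-fold at 6 h (log2FC 1.49 ± 0.26, adjusted p = 4.41e-05) and 5.22-fold at 8 h (log2FC 2.38 ± 0.26, adjusted p = 8.11e-08). The 4 h call was lost without mYFP replicate 1 (0.93) or 2 (0.90) or MLACC replicate 3 (0.86) and with only the compared libraries in the fit (1.05, adjusted p = 0.0293). The calls of 6 and 8 h were kept under all 13 alternatives.

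CSD2, its chloroplast counterpart, did not follow CSD1. CSD2 had 57.3, 29.4 and 63.3 CPM with MLACC at 8 h, against 97.4, 54.5 and 83.5 CPM with mYFP. The groups overlapped, and the log2FC was -0.65 ± 0.41 (edgeR adjusted p = 0.159). At 4 h its log2FC was -1.21 ± 0.42 (adjusted p = 0.0132), which passed by DESeq2 (-1.22, adjusted p = 0.00616) and without mYFP replicate 1 (-1.44) or 2 (-1.55) or MLACC replicate 3 (-1.55). Without mYFP replicate 3, in contrast, it was -0.56 (adjusted p = 0.222). FSD1 had 177, 219 and 396 CPM with MLACC at 8 h, against 237, 519 and 460 CPM with mYFP, with a log2FC of -0.61 ± 0.33 (adjusted p = 0.096). These ranges overlapped through MLACC replicate 3, a library closer to another time point over all genes, and without it FSD1 had a log2FC of -1.07 (adjusted p = 0.00973). CSD1 took 64.9% ± 9.22 of superoxide dismutase CPM per kb with MLACC at 8 h and 19.1% ± 8.38 with mYFP. FSD1 took 27.3% ± 8.68 with MLACC and 62.1% ± 15.9 with mYFP. The summed level of the 3 was 654 ± 114 CPM with MLACC and 550 ± 112 CPM with mYFP.

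**Figure D4:**
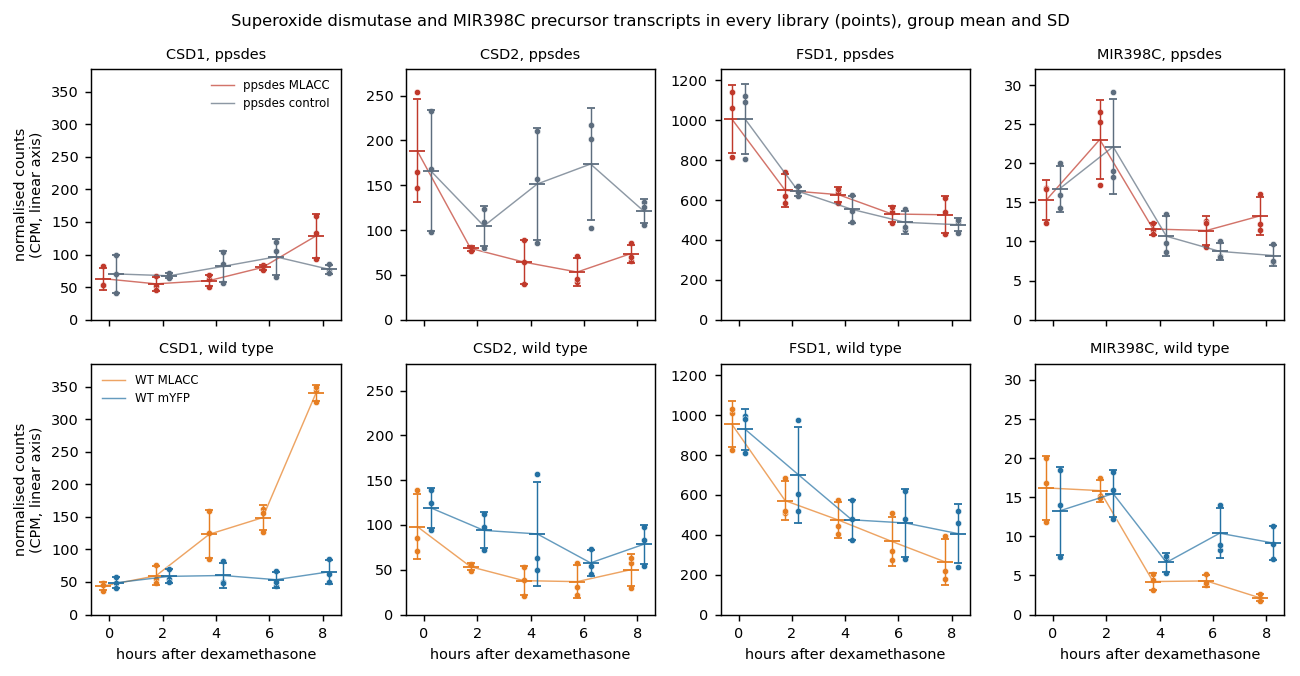
CSD1, CSD2, FSD1 and the miR398 precursor MIR398C in every library (CPM, linear axes that start at 0) over hours after dexamethasone. The ppsdes lines are above and wild type below, with dashes and bars for the mean and SD of 3 libraries. CSD1 averages 340 CPM with MLACC and 65.7 CPM with mYFP in wild type at 8 h, and 129 CPM with MLACC and 77.2 CPM in the control in ppsdes.

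The precursor of miR398c was lower with MLACC in the same libraries. MIR398C had 2.07, 2.61 and 1.75 CPM with MLACC at 8 h, against 9.02, 11.4 and 7.08 CPM with mYFP. The groups were far apart, and it fell at 8 h (log2FC -2.08 ± 0.31, edgeR adjusted p = 3.49e-06) and at 6 h (log2FC -1.26 ± 0.29, adjusted p = 0.000886). At 4 h, when CSD1 was already called, MIR398C had a log2FC of -0.61 ± 0.29 (adjusted p = 0.0708). In ppsdes at 8 h it had 11.4, 16.1 and 12.3 CPM with MLACC, against 9.73, 7.40 and 7.46 CPM in the control (log2FC 0.66 ± 0.22, adjusted p = 0.0201), and its MLACC effect differed between backgrounds at 8 h (2.79 ± 0.38, ppsdes minus wild type, adjusted p = 4.02e-07). MIR398B had 2, 1 and 1 counts with MLACC at 8 h in wild type, against 15, 31 and 25 counts with mYFP, and it lies wholly within AT5G14550 on the other strand, whose reads cannot be told apart from its own. The mature microRNA was not measured in these poly(A) libraries. Of other genes with a miR398 site, COX5B1 and CCS1 were examined at 8 h in wild type, and neither passed the test. COX5B1, a cytochrome oxidase subunit whose site pairs at 19 bases, had a log2FC of 0.23 ± 0.11 (adjusted p = 0.0519). CCS1, the chaperone that loads copper into both CSD enzymes, had 0.39 ± 0.21 (adjusted p = 0.0935). SPL7 had 0.03 ± 0.16 (adjusted p = 0.87). The part of miR398 in the level of CSD1 was not tested.

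Fewer members, and fewer of all genes, were called in ppsdes than in wild type. At 4, 6 and 8 h 2.22%, 14.6% and 12.4% of all genes were called in ppsdes, against 39%, 29.3% and 45.8% in wild type. At 2 h and 4 h edgeR called 0 of 9 members, with 0 and 3 at an unadjusted p below 0.05, where 0.396% and 2.22% of all genes were called. DESeq2 called 0 at 2 h and 1 at 4 h (CSD2, log2FC -1.25, adjusted p = 0.00654), for which edgeR gave -1.23 ± 0.34 (adjusted p = 0.0282). At 6 h 2 of 9 were called, against 14.6% of all genes. APX1 had 743, 1056 and 970 CPM with MLACC at 6 h in ppsdes, against 487, 439 and 454 CPM in its control. CSD2 had 71.4, 42.5 and 45.5 CPM with MLACC, against 102, 217 and 202 CPM in the control. Neither gene's groups overlapped. APX1 rose 2.03-fold (log2FC 1.02 ± 0.18, edgeR adjusted p = 0.000112) and CSD2 fell 3.21-fold (log2FC -1.68 ± 0.35, adjusted p = 0.000549). The APX1 call was lost without control replicate 2 (0.98) or MLACC replicate 2 (0.91) or 3 (0.99), and the CSD2 call with only the compared libraries in the fit (-1.66, adjusted p = 0.0116).

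At 8 h edgeR called 0 of 9 members in ppsdes, 4 had an unadjusted p below 0.05 and DESeq2 called 1, APX1, where 12.4% of all genes were called. APX1 had 1109, 841 and 986 CPM with MLACC, against 571, 415 and 470 CPM in the control, without overlap and just under the fold threshold (log2FC 0.98 ± 0.18, edgeR adjusted p = 0.000242, and 1.01 by DESeq2, adjusted p = 5.02e-07). It passed without control replicate 1 (adjusted p = 0.000419) or MLACC replicate 2 (1.08). TAPX had 155, 160 and 180 CPM with MLACC, against 222, 251 and 267 CPM in the control, also without overlap (log2FC -0.61 ± 0.10, adjusted p = 5.6e-05). Both values were under the fold threshold. CSD1 had 159, 133 and 93.1 CPM with MLACC, against 74.5, 85.1 and 72.0 CPM in the control, with a log2FC of 0.71 ± 0.27 that did not pass (adjusted p = 0.0398). CAT3 had a log2FC of 0.04 ± 0.26 (95% interval -0.50 to 0.59, adjusted p = 0.913) and CAT2 of 0.40 ± 0.21 (adjusted p = 0.132). SAPX had 0.03 ± 0.25 (95% interval -0.48 to 0.55). Summed catalase was 1967 ± 424 CPM with MLACC and 1790 ± 293 CPM in the control, and summed ascorbate peroxidase 1238 ± 154 CPM with MLACC and 822 ± 80.1 CPM in the control.

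**Figure D5:**
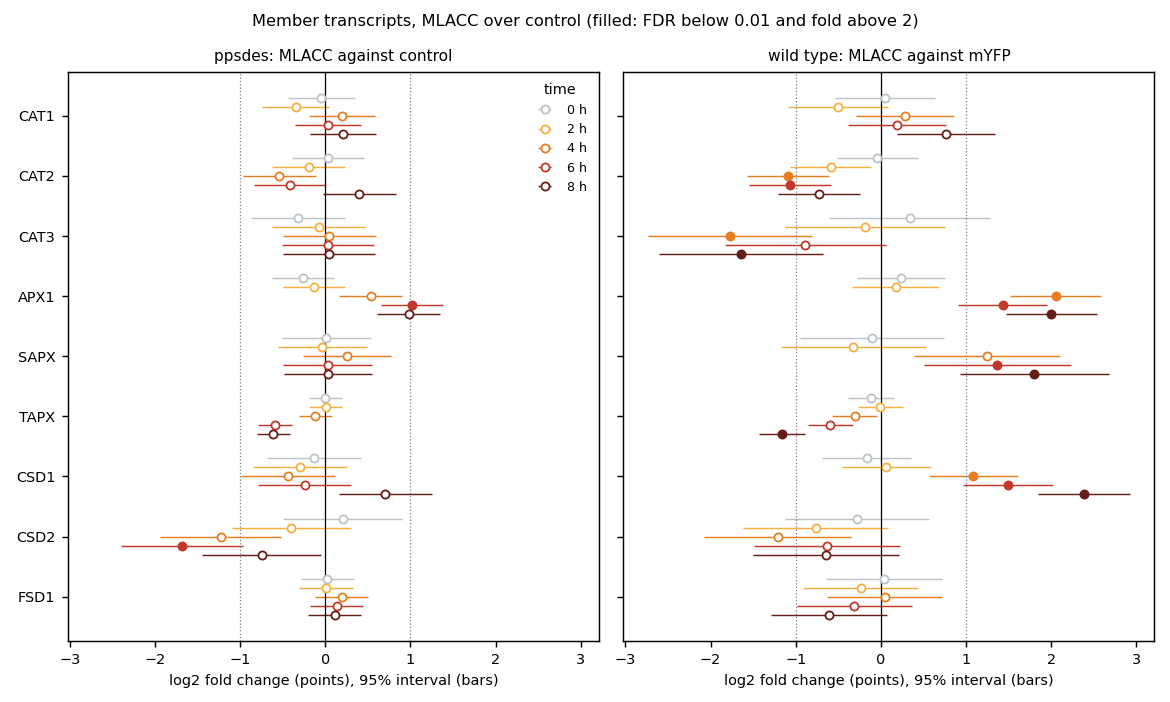
Log2 fold change of each of the 9 testable members (points) with its 95% interval (bars) at 0 to 8 h, MLACC against control in ppsdes (left) and in wild type (right), filled where the adjusted p was below 0.01 and the absolute log2 fold change above 1. At 8 h CSD1 stands at 0.71 in ppsdes and 2.38 in wild type, and CAT3 at 0.04 in ppsdes and -1.64 in wild type.

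Whether the effect of MLACC depended on the background was tested as the log2FC in ppsdes minus that in wild type, with all 60 libraries in 1 fit. By edgeR 0, 3, 1 and 3 of 9 members were called at 2, 4, 6 and 8 h, against 0.206%, 20.7%, 4.13% and 19.9% of all genes, and at 2 h 0 were called by DESeq2 and 0 had an unadjusted p below 0.05. CSD1 differed at every time from 4 h, by -1.49 ± 0.38 at 4 h, -1.74 ± 0.38 at 6 h and -1.64 ± 0.38 at 8 h (edgeR adjusted p = 0.00184, 0.00133 and 0.000651). APX1 differed at 4 h (-1.48 ± 0.31, adjusted p = 0.000249), with -0.97 ± 0.30 at 8 h (adjusted p = 0.00923), just under the fold threshold. SAPX differed at 8 h (-1.72 ± 0.49, adjusted p = 0.00478), CAT2 at 8 h (1.17 ± 0.32, adjusted p = 0.00307) and CAT3 at 4 h (1.85 ± 0.55, adjusted p = 0.00646). The negative differences belong to genes that rose with MLACC in wild type and the positive ones to genes that were lower there. The difference contains the wild-type effect with its sign reversed, so this pairing of signs carries no test. CAT3 at 8 h just missed the threshold (1.71 ± 0.55, adjusted p = 0.0107), and TAPX had 0.59 ± 0.16 (adjusted p = 0.00341). CSD2, the member that fell in ppsdes at 6 h, had a difference of -1.06 ± 0.55 at that time that did not pass (adjusted p = 0.215). At 0 h 0 of 9 were called by edgeR or DESeq2 and 0 had an unadjusted p below 0.05, against 0.01% of all genes.

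Single libraries decided several of these differences. Those of CSD1 at 6 and 8 h and of APX1 at 4 h were kept without any 1 of 12 libraries, and that of CSD1 at 4 h was lost without wild-type MLACC replicate 3 (-1.19, edgeR adjusted p = 0.0163) or ppsdes control replicate 2 (-1.28, adjusted p = 0.0105). That of CAT2 at 8 h was lost without wild-type MLACC replicate 2 (1.14), ppsdes control replicate 2 (1.07) or ppsdes MLACC replicate 1 (1.07), and at 4 h CAT2 passed without wild-type MLACC replicate 1 (1.16). That of SAPX at 8 h was lost without mYFP replicate 1 (-1.39), wild-type MLACC replicate 2 (-1.48) or 3 (-1.63), ppsdes control replicate 1 (-1.58) or ppsdes MLACC replicate 2 (-1.48). That of CAT3 at 4 h was 1.55 to 2.74 with 1 of 12 libraries left out in turn, highest without wild-type MLACC replicate 1, and was lost without 7 of them (1.55 to 1.92), namely mYFP replicate 2 and replicates 2 and 3 of wild-type MLACC, 1 and 3 of the ppsdes control and 2 and 3 of ppsdes MLACC. At 8 h, that of CAT3 passed by DESeq2 (1.65, adjusted p = 0.00692) and without mYFP replicate 1 (1.87), wild-type MLACC replicate 3 (2.23) or ppsdes MLACC replicate 2 (1.91), and that of FSD1 without wild-type MLACC replicate 3 (1.25). That of APX1 at 8 h passed by DESeq2 (-1.03, adjusted p = 0.00317) and without mYFP replicate 2 (-1.12) or 3 (-1.14), wild-type MLACC replicate 3 (-1.02) or ppsdes control replicate 2 (-1.07). With the differences at 0 h subtracted as well, 0 members were called at 4, 6 or 8 h (CSD1 at 8 h -1.65, adjusted p = 0.0301).

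Leaf cell markers moved with the members. At 8 h 45.8% of all genes tested were called in either direction in wild type and 12.4% in ppsdes, beside which the marker counts below stand. The 5 mesophyll markers summed to 5929 to 15836 CPM with MLACC at 8 h in wild type and 32910 to 38003 CPM with mYFP, and 5 of 5 were called lower. In ppsdes they summed to 27856 to 38077 CPM with MLACC and 40832 to 48573 CPM in the control, and edgeR called 0 of 5, with 3 at an unadjusted p below 0.05. The 5 epidermis markers summed to 104 to 372 CPM with MLACC in wild type at 8 h and 801 to 932 CPM with mYFP, 4 of them called lower. In ppsdes these summed to 466 to 645 CPM with MLACC and 813 to 1303 CPM in the control, 2 of them called lower. The 4 guard cell markers moved in opposite directions in sum at 8 h, without overlap in either background. They summed to 21.6 to 32 CPM with MLACC and 57.5 to 65.1 CPM in the control in ppsdes, and to 50.1 to 58.7 CPM with MLACC and 40.1 to 47.5 CPM with mYFP in wild type. Of these, named after their values were seen, KAT1, a potassium channel, fell in ppsdes (log2FC -1.64 ± 0.26, edgeR adjusted p = 7.7e-05) and rose in wild type (1.08 ± 0.16, adjusted p = 4.52e-06), while MYB60 (-1.62 ± 0.34) and HT1 (-1.21 ± 0.22) fell in wild type. The 5 vasculature markers overlapped in sum (326 to 381 CPM with MLACC and 318 to 359 CPM with mYFP in wild type). The 3 trichome markers, at low levels, also moved in opposite directions in sum at 8 h, without overlap. In ppsdes they summed to 3.48 to 6.24 CPM with MLACC and 1.04 to 1.47 CPM in the control. In wild type they summed to 1.06 to 1.89 CPM with MLACC and 2.19 to 3.32 CPM with mYFP. In such bulk samples fewer cells of a type and less RNA per cell cannot be told apart, and the part of either in the member levels was not tested. Of the clock genes, CCA1 fell and TOC1 rose with MLACC at 4 h in wild type (log2FC -1.06 ± 0.30 and 1.79 ± 0.26, edgeR adjusted p = 0.00395 and 4.95e-06). At 8 h, when CAT3 was called, they had a log2FC of 0.52 ± 0.40 and -0.42 ± 0.25 (adjusted p = 0.242 and 0.137), and the part of the clock in the catalase levels was not tested.

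Other genes of the same reactions were counted at 8 h, when 45.8% of all genes tested were called in wild type and 12.4% in ppsdes. Of the 4 remaining ascorbate peroxidase genes, 2 fell with MLACC in wild type and 0 rose, a share near that of all genes. They were APX4, a thylakoid lumen protein of the family (98 ± 73.8 CPM with MLACC and 463 ± 16.3 CPM with mYFP, log2FC -2.25 ± 0.35, edgeR adjusted p = 5.88e-06), and APX6 (log2FC -1.01 ± 0.13). Of the other superoxide dismutase genes and the chaperone CCS1, 3 of 5 tested fell and 0 rose, the chloroplast FSD3 (log2FC -2.13 ± 0.45) and FSD2 (-1.58 ± 0.20) and the peroxisomal CSD3 (-1.86 ± 0.22). The median log2FC of these lists was -0.81 and -1.58, beside 0.02 over all genes tested. In ppsdes edgeR called 0 of 4 ascorbate peroxidase genes, with 2 at an unadjusted p below 0.05 and APX4 furthest (-0.93 ± 0.14), and 1 of 5 of the other list, where FSD2 fell (-1.01 ± 0.23, adjusted p = 0.00149).

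The reductases that recycle ascorbate and glutathione moved both ways. Of 10, 4 rose and 3 fell at 8 h in wild type (median log2FC 0.11), where 45.8% of all genes were called. MDAR3, a cytosolic monodehydroascorbate reductase, had 99.1, 242 and 246 CPM with MLACC, against 0.0911, 0.0897 and 0 CPM with mYFP, that is 13071 and 4 counts in all. It was barely detectable with mYFP. The cytosolic MDAR2 (log2FC 3.41 ± 0.36) and DHAR2 (2.31 ± 0.24), a dehydroascorbate reductase, rose too, whereas the plastid DHAR3 (-1.33 ± 0.16), GR2 of plastids and mitochondria (-1.04 ± 0.11) and the peroxisomal MDAR4 (-1.08 ± 0.21) fell (edgeR adjusted p = 8.83e-05 or less). In ppsdes, where 12.4% of all genes were called, 2 of 10 rose, MDAR2 (1.54 ± 0.27) and MDAR3 (53 counts with MLACC and 3 in the control), and DHAR1 fell (-1.13 ± 0.32, adjusted p = 0.00734), though 15.4% of its 50-base stretches are repeated in the genome. Of 7 genes of ascorbate and glutathione synthesis, 3 rose in wild type, GSH2 (1.83 ± 0.22), VTC5 (1.81 ± 0.29) and VTC1 (1.12 ± 0.17), and VTC4 fell (-1.81 ± 0.36). The median log2FC was 0.64. In ppsdes edgeR called 0 of these, with 2 at an unadjusted p below 0.05 and VTC4 furthest (-0.44 ± 0.17, adjusted p = 0.0475).

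Of 15 peroxiredoxin and glutathione peroxidase genes, 5 rose and 5 fell in wild type at 8 h (median log2FC 0.41), beside 45.8% of all genes called. PRXIIC, a cytosolic peroxiredoxin, had 270, 461 and 322 CPM with MLACC, against 0.865, 0.718 and 0.513 CPM with mYFP (log2FC 8.97 ± 0.78, edgeR adjusted p = 3.46e-09). In ppsdes it had 101, 166 and 43.7 CPM with MLACC, against 0.0433, 4.36 and 0.141 CPM in the control (log2FC 6.12 ± 1.25, adjusted p = 0.000659). It moved furthest of its list in both backgrounds, though 13.1% of its 50-base stretches are repeated in the genome, so that its counts are uncertain. GPX2 (2.19 ± 0.15) and the cytosolic PRXIIB (2.18 ± 0.20) rose in wild type, and the plastid PRXQ (-1.80 ± 0.24), 2CPB (-1.63 ± 0.18) and PRXIIE (-1.49 ± 0.20) fell. In ppsdes, beside 12.4% of all genes, 3 of 14 tested rose, PRXIIB (1.36 ± 0.17) and GPX8 (1.06 ± 0.19) beside PRXIIC, and 0 fell.

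Of 9 photorespiratory genes, whose peroxide CAT2 removes, 8 fell and 0 rose in wild type at 8 h (median log2FC -2.16), beside 45.8% of all genes called in either direction. HPR1, the peroxisomal hydroxypyruvate reductase, was at 154 ± 116 CPM with MLACC and 983 ± 24.8 CPM with mYFP (log2FC -2.68 ± 0.46, edgeR adjusted p = 2.17e-05). GLDP1 of glycine decarboxylase fell as well (-2.44 ± 0.38). PGLP1, a phosphoglycolate phosphatase, was furthest (-3.31 ± 0.58), but 100% of its 50-base stretches are repeated in the genome and its counts are uncertain. In ppsdes edgeR called 0 of 9, with 6 at an unadjusted p below 0.05 and GLYK, glycerate kinase, furthest (-0.66 ± 0.10, adjusted p = 3.54e-05). The median there was -0.39, beside -0.07 over all genes tested.

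Of 11 genes of copper supply and miR398 tested in wild type at 8 h, 7 fell and 0 rose (median log2FC -1.73), where 45.8% of all genes were called. With both MIR398 precursors they included the copper transporter COPT2, at 6, 1 and 1 counts with MLACC and 15, 17 and 17 counts with mYFP. In ppsdes edgeR called 0 of 12, with 5 at an unadjusted p below 0.05 and COPT2 furthest (0.93 ± 0.43, edgeR adjusted p = 0.0898). Of 12 heat shock factors and other regulators tested, 6 rose and 1 fell in wild type (median log2FC 1.18), a share of called genes near the 45.8% of all genes, led by ZAT12, ZAT10 (7.13 ± 1.09) and HSFA2, with HSFA3 the one that fell (-1.83 ± 0.59). In ppsdes 4 of 12 rose, beside 12.4% of all genes called, led by ZAT12 (6.29 ± 0.88), ZAT10 (4.22 ± 1.08) and HSFA4A (2.16 ± 0.62). HSFA2 had 2.23, 1.47 and 3.69 CPM with MLACC there, against 1.12, 0.152 and 0.798 CPM in the control, which did not pass (log2FC 1.77 ± 0.93, adjusted p = 0.138).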

How the data were processed

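Poly(A) RNA of 60 leaf libraries (4 lines, 5 times, 3 replicates) was sequenced without strand information. The authors aligned reads to TAIR10 with TopHat2 2.0.10 after quality checks with FastQC 0.11.2 and deposited raw HTSeq counts per gene, in 1 table for wild type and 1 for ppsdes. The 5 summary lines of each table were left out. Reads without a feature made up 1.24 to 2.26% of a library, ambiguous reads 0.362 to 0.671% and reads that aligned to several places 6.46 to 14.2%.

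Counts were tested with edgeR 4.0.16 (filterByExpr, TMM, quasi-likelihood F test, 1 mean per group, R 4.3.3). Each table was fitted on its own, and comparisons across tables in 1 fit of all 60 libraries. P-values were adjusted by Benjamini-Hochberg over all genes tested, and a gene was called at an adjusted p below 0.01 and an absolute log2FC above 1, the thresholds of the study. The procedure was tested on simulated data with the same spread for all genes and groups. That test does not cover groups of unequal spread or libraries that deviate, as some do here. Alternatives were DESeq2 1.42.0, its size factors in edgeR, no filter on low counts, a replicate block, only the compared libraries, the difference at 0 h subtracted, and each library left out in turn. Replicates were named biological by the labels. The p-values rest on 1 spread between replicates per gene, pooled over all groups of a fit. Replicates agreed unequally. Between 2 libraries of a group the chi-square per gene ran from 10 (mYFP, 8 h) to 164 (wild-type MLACC, 8 h). The pooled spread can therefore be too small for the groups that agreed least.

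The members and lists were chosen with earlier results of these data known. From each list the text names, in each direction, the 3 genes of largest change among those called with MLACC at 8 h in each background (the gene of largest change where none was called), and also the members, the regulators SPL7, HSFA2, CCA1, TOC1, ZAT12 and the miR398 precursors, and the 3 genes whose course was most like each member. COX5B1 and CCS1 were named for their miR398 sites. Sequences and gene models are those of RefSeq TAIR10.1. No protein sequences were used here.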

Additional observations from a re-analysis of the deposited data

Results flagged for a closer look

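In 7 cases the MLACC effect on a member differed between ppsdes and wild type by a test of the difference itself (edgeR, ppsdes minus wild type, log2 scale). The differences at 4 h were 1.85 for CAT3, -1.48 for APX1 and -1.49 for CSD1. At 6 h CSD1 differed by -1.74. At 8 h the differences were 1.17 for CAT2, -1.72 for SAPX and -1.64 for CSD1. All 7 fell short of the thresholds once the differences at 0 h were subtracted. APX1 at 4 h then had -0.96. The others stayed above the fold threshold, from CAT2 at 8 h (1.12) to CAT3 at 4 h (2.53), and lost the call through the adjusted p. The controls of the backgrounds are not alike and the study notes less MLACC protein in the mutant, and neither can be told apart from the background.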

How the results depend on the processing

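No member log2FC of a called result changed sign under any alternative. Counts of members called moved with several alternatives. With the difference at 0 h subtracted, wild type had 2 members called at 4 h (4 before) and 1 at 6 h (4 before), ppsdes had 1 at 8 h (0 before), and the difference between backgrounds had 0 at 4, 6 and 8 h (3, 1 and 3 before). With only the compared libraries in the fit, wild type had 1 at 4 h and 3 at 8 h (4 and 5 before), ppsdes 1 at 6 h and 1 at 8 h (2 and 0 before), the difference 0 at 4 h, and the mYFP line 0 at 2 h and 6 at 6 h (1 and 3 before). DESeq2 called 1 in ppsdes at 4 h, 1 at 8 h and 5 for the difference at 8 h. DESeq2 size factors and no filter on low counts each gave 1 in ppsdes at 8 h. An alternative chosen after seeing the data, without the 5 libraries closest to another time point, gave 6 for the difference at 8 h and 0 in the mYFP line at 2 h.

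With 1 library left out in turn, wild type had 2 to 5, 2 to 4 and 4 to 6 members called at 4, 6 and 8 h. Over all genes tested, 6044 to 8983, 3863 to 5644 and 7422 to 9448 were called there. In ppsdes 1 to 2 members were called at 6 h and 0 to 1 at 8 h, beside 1688 to 3755 and 1543 to 2630 of all genes. For the difference between backgrounds the ranges of members were 1 to 4, 1 to 1 and 1 to 5 at 4, 6 and 8 h. Those of all genes were 2454 to 6190, 559 to 835 and 2274 to 5036. The mYFP line had 0 to 1, 2 to 3, 3 to 4 and 3 to 4 members at 2, 4, 6 and 8 h, and the ppsdes control 0 to 1, 1 to 3, 3 to 4 and 3 to 4. Of all genes, 1492 to 2312, 2106 to 2355, 3366 to 3690 and 3756 to 4069 were called in the mYFP line. In the ppsdes control 1827 to 2390, 2214 to 2560, 3211 to 3581 and 3640 to 3830 were.

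Replicate numbers were shared between lines. Same-numbered libraries deviated together (correlation over 0.1) in 21 of 30 pairs and in all pairs of 3 of 10 comparisons. The correlations ran from -0.27 to 0.65, so whether equal numbers mark paired libraries is not settled. The replicate block gave 0 members called at 2 h, 5 at 4 h and 6 at 6 h in the mYFP line (1, 3 and 3 without it). With MLACC in wild type at 4 h the block gave 6 (4 without it), adding SAPX (log2FC 1.25, edgeR adjusted p = 0.000275) and CSD2 (-1.21, adjusted p = 0.00169), and it added APX1 to the differences between backgrounds at 8 h (-1.01, adjusted p = 0.00333) and SAPX in the mYFP line at 8 h (-1.05, adjusted p = 0.00192). Over all genes the block moved 1 count of called genes and left 23 about the same. The cause of these changes was not tested.

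Counts over all genes moved too. With the difference at 0 h subtracted, wild type had 68, 4479 and 2642 genes at 2, 4 and 6 h (837, 7665 and 5766 before), ppsdes 6, 47, 1361 and 783 at 2 to 8 h (76, 427, 2810 and 2391 before) and the difference 1, 730, 156 and 884 (41, 4123, 823 and 3966 before). With only the compared libraries they were 2 and 3943 in wild type at 2 and 4 h, 0, 87 and 1853 in ppsdes at 2, 4 and 6 h, 3, 961 and 2038 for the difference at 2, 4 and 8 h, and 29 for the controls at 0 h (70 before). DESeq2 gave 3 genes in wild type at 0 h (1 before), 130 in ppsdes at 2 h, 121 for the difference at 2 h and 148 for the controls. For the difference at 2 h the block gave 62 and the 55 libraries 21, and these gave 6377 at 4 h. Depth limited APX2, at 0 to 3 counts, and the MIR398 precursors.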

Other observations

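The genes whose group means were most like each member are given as a description, with Pearson's r of log2(CPM + 1) over the 20 groups. These groups share times, lines and tables, so the values carry no test. CAT2, the day catalase, was most like SPS2 (0.995), AT3G56290 (0.987) and GBSS1 (0.986). CAT1 was most like ARD1 (0.990), AT3G07640 (0.988) and UBC2 (0.987), and CAT3 like AT4G10000 (0.985), AT1G02305 (0.980) and PIFI (0.979). Among the ascorbate peroxidases, TAPX was most like LPA3 (0.992), CLPP5 (0.992) and PRPL28 (0.987), APX1 like AT5G55050 (0.932), GEK1 (0.918) and SEC61 BETA (0.916) and SAPX like GTB1 (0.872), AT5G11340 (0.872) and AT1G27300 (0.866). CSD1 was most like DHAR2 (0.935), NEK5 (0.925) and WRKY41 (0.924), of which DHAR2 is the cytosolic dehydroascorbate reductase that also rose with MLACC. CSD2 was most like ALATS (0.947), AT3G08520 (0.917) and CSR1 (0.912), and FSD1 like AT4G32350 (0.98), AT1G72430 (0.971) and AT1G09160 (0.953).

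Between the members themselves, r over the 20 groups was -0.90 for CAT1 with CAT2, 0.91 for CAT1 with its tandem neighbour CAT3, 0.92 for CAT2 with FSD1, -0.82 for TAPX with CSD1 and -0.80 for APX1 with TAPX. SAPX had the lowest best match of the 9 members.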
